A study of Mus musculus with 9 samples.

Results

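Imprinted genes are expressed from only the maternally or only the paternally inherited copy, some of them in certain tissues only. The 30 described here were followed across 3 populations of cells sorted from the aorta-gonad-mesonephros (AGM) region of the mouse embryo. The members came from a list of 34 known imprinted genes, and a gene was taken where the array platform gave its symbol to a probe set. This held for 30 of the 34, out of 20405 named genes in all, while Kcnq1ot1, Rian, Snrpn and Zrsr1 were not analysed here. Of the 30, 13 are known for expression from the maternal copy and 16 from the paternal copy, and Gnas is a locus with transcripts of both kinds. These classes come from general knowledge and were not checked in AGM cells. The 30 lie in 17 imprinted clusters or solitary loci.

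In the AGM, the first blood stem cells bud from the endothelium of the dorsal aorta. C57Bl6 embryos of stage E11.5 were used, and sorting relied on CD144 (the endothelial adhesion protein VE-cadherin, encoded by Cdh5) and CD45 (a white blood cell surface phosphatase encoded by Ptprc). CD144+CD45- endothelial cells are called EC, CD144+CD45+ stem and progenitor cells HSPC, and CD144-CD45+ blood cells HC. Each population was measured on 3 Affymetrix arrays from about 5 ng of total RNA, and the labels name no allele, transgene or treatment in any group. Whether a group's arrays stem from different embryo pools is not said there either; each p-value is therefore one against the spread of the arrays at hand, possibly a technical one. The arrays measure total RNA of a gene and cannot tell the maternal from the paternal copy, so nothing below says whether an imprint was kept or lost. Levels are log2 expression values, in which a difference of 1 is a doubling.

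Imprinting is laid down as DNA methylation of control regions in the egg or the sperm and is kept in the body cells of the embryo. The methylated copy of a control region can silence some genes of its cluster and permit others, as at Igf2, which is expressed from the copy whose control region is methylated. Many imprinted genes act on growth: Igf2 drives it, and Igf2r, Cdkn1c and Grb10 restrain it. They are highly expressed in fetal tissue, and in blood stem cells of the mouse Cdkn1c and the H19-Igf2 and Dlk1-Meg3 regions are known for their part in quiescence. Imprints are protected after fertilisation by Zfp57, a zinc finger protein that binds TGCCGC where the CG is methylated and recruits the corepressor Trim28.

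The bases before the start sites of the members are shown first because Zfp57 itself differed between all 3 populations, as given further on. RefSeq start windows on GRCm38.p6 were found for 23 of the 30 members, with 37 windows in all because some genes have several starts. The letters TGCCGC or their reverse complement GCGGCA was present in the 250 bases before the start in 5 of these 23 genes (6 of 37 windows, 16.2%), against 8.68% of all 32851 windows of the same length. Of the 6 windows, 2 are overlapping Mest windows that hold the same matches, so that sequence is counted in both. Member windows also held more CG pairs, with a median of 10 against 6. The 5 genes are Mest, Plagl1, Nap1l5, Meg3 and Zim1, of which Mest, Plagl1 and Nap1l5 are known to start within regions methylated on the maternal copy. The windows below run 5′ to 3′ along the gene and end just before its start, and capitals mark TGCCGC or GCGGCA. A match is a description of the letters and not a binding site.
Mest, chr6:30737800-30738049, plus strand: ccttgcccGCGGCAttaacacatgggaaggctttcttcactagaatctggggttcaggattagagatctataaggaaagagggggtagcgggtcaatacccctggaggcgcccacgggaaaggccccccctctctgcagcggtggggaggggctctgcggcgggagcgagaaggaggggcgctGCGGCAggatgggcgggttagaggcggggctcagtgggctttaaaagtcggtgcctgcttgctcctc
Plagl1, chr10:13090582-13090831, plus strand: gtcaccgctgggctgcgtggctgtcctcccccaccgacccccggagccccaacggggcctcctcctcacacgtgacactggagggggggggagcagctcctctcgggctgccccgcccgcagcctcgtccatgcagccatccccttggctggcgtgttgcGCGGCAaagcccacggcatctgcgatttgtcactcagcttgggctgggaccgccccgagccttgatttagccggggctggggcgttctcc
Nap1l5, chr6:58907127-58907376, minus strand: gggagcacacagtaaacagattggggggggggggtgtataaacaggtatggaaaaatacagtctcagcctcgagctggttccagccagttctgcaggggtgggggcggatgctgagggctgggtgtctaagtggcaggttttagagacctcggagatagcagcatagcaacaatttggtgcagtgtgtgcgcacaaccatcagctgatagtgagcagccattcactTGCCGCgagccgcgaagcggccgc
Meg3, chr12:109540746-109540995, plus strand: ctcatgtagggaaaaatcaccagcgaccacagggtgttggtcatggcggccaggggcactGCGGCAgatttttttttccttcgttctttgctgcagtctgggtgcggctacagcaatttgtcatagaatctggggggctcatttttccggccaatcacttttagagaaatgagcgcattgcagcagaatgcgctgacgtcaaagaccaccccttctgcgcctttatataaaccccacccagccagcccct
Zim1, chr7:6696433-6696682, minus strand: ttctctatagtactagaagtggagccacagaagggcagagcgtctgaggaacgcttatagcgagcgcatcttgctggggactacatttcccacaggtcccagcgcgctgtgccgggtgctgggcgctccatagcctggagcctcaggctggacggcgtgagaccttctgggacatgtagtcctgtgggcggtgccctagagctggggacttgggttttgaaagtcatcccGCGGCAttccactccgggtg

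The sort was checked on the genes of the sorted proteins. Cdh5 averaged 11.70 ± 0.14 (EC), 10.47 ± 0.68 (HSPC) and 5.79 ± 0.65 (HC), and Ptprc at 4.42 ± 0.07, 8.90 ± 0.26 and 9.95 ± 0.10 (mean ± SD, n = 3 each). The HSPC arrays stood apart from each other. The summed level of 6 endothelial markers was 12.6, 11.1 and 11.9 in HSPC replicates 1, 2 and 3, and that of 6 macrophage markers 11.3, 12.9 and 12.3. Replicate 1 thus had the highest endothelial sum of the 3 and replicate 2 the highest macrophage sum. Among HC arrays, replicate 3 had the lowest endothelial sum, at 7.97 against 8.73 and 8.46. The main counts of members are therefore also given without HSPC replicate 1, HSPC replicate 2 and HC replicate 3. In such bulk samples fewer cells of a type and less RNA per cell cannot be told apart. As a yardstick of background, 95% of the values of 1289 olfactory and vomeronasal receptor genes lay under 4.69, and where the lower group's mean lies at or under that level a fold is written as "at least".

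The comparison of HC with EC asks how CD144-CD45+ blood cells differ from endothelium. Most of the 30 listed genes were lower in HC. Past the threshold (adjusted p under 0.05 over all genes, limma) 19 fell and 2 rose, and 9 did not pass. The list was chosen with earlier results of these data known, so the counts describe these members and not imprinted genes at large. Over all genes, 12.6% fell and 14.8% rose, or 27.4% in either direction. The median difference of the 30 members was -1.70, against 0.05 over all genes. The 19 were H19, Igf2, Cdkn1c, Kcnq1, Igf2r, Airn, Meg3, Peg3, Peg10, Sgce, Ppp1r9a, Asb4, Mest, Ndn, Grb10, Plagl1, Gnas, Nnat and Slc38a4, with differences from -0.87 for Gnas to -4.22 for Plagl1. For 21 members no HC array fell within the range of the EC arrays or across it, as was so for 39.2% of all genes. The count of 19 was also 19 without HC replicate 3, without HSPC replicate 1 and without HSPC replicate 2, while the 2 higher became 1 without HC replicate 3.

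Members of both parental classes took part. Of the 13 maternally expressed genes 8 fell in HC and 0 rose, with a median difference of -1.08. Of the 16 paternally expressed genes 10 fell and 2 rose, with a median of -2.02. An unadjusted p under 0.05 (limma) held for 8 of the maternal and 13 of the paternal genes, against 7364 of all 20405 genes. Gnas, with transcripts of both kinds, fell. The counts of fallen genes, 8 and 10, were the same without each of the 3 arrays named above. The difference between the maternal and the paternal set was not tested.

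**Figure D1:**
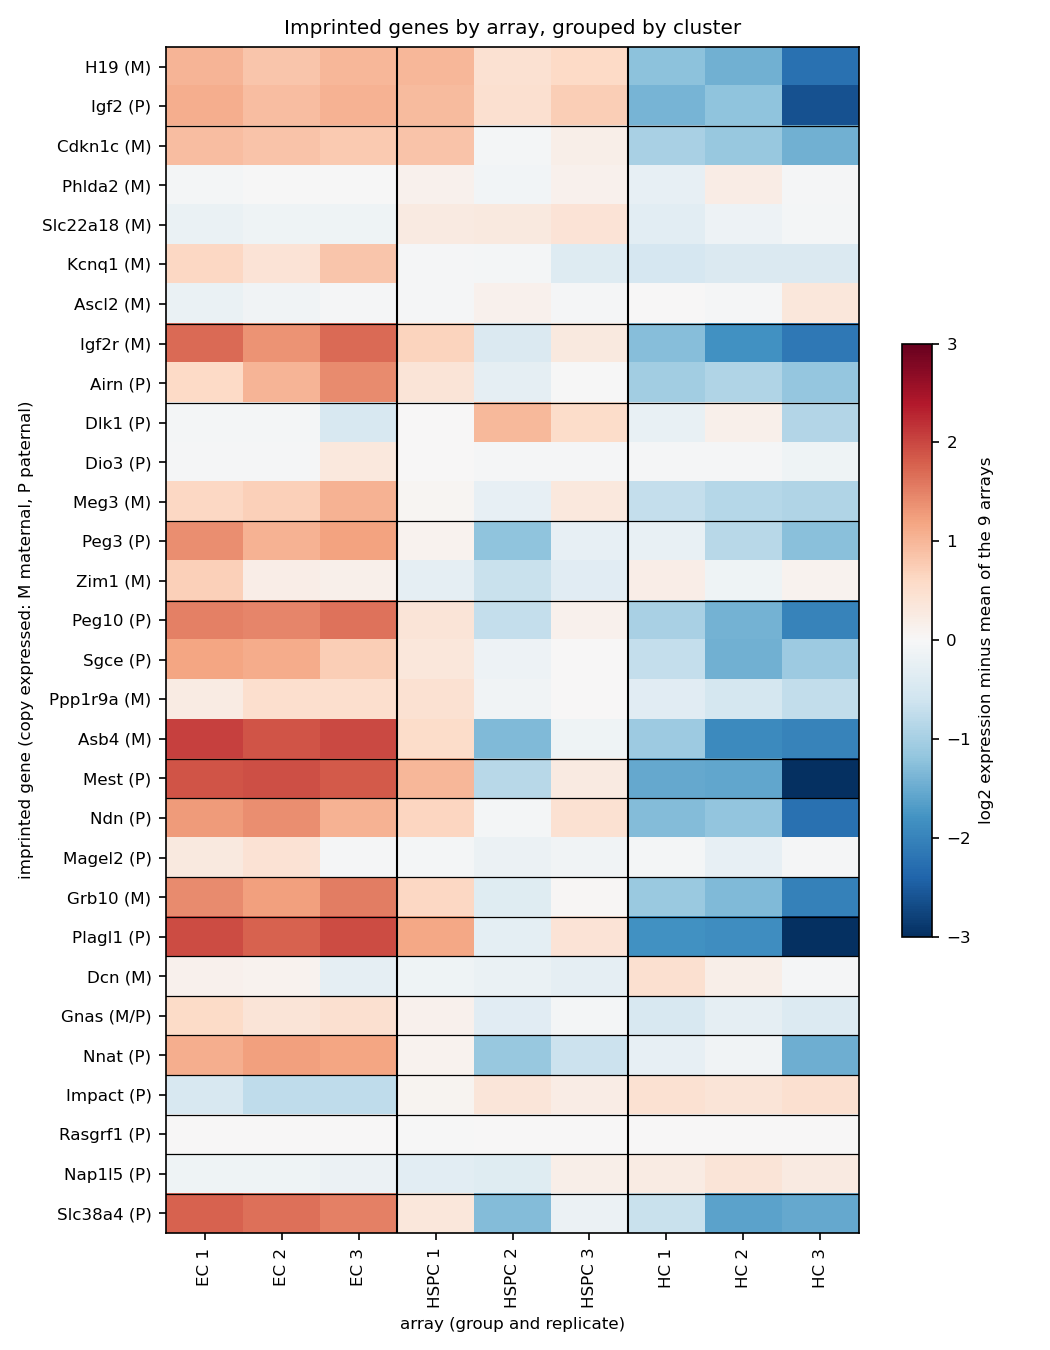
Level of each of the 30 imprinted genes on each of the 9 arrays, as log2 expression minus the gene's mean over all arrays; columns are arrays, rows are genes grouped by cluster, and values beyond 3 share the end colour. Most rows run from high (red) in EC to low (blue) in HC, and Impact runs the other way.

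The H19-Igf2 cluster, which encodes the fetal growth factor Igf2 (paternal) and the noncoding RNA H19 (maternal), was lower in HC than in both CD144+ populations. Igf2 stood at 12.14, 11.97 and 12.10 in EC, 12.004, 11.54 and 11.79 in HSPC, and 9.67, 9.84 and 8.44 in HC. H19 stood at 12.62, 12.42 and 12.59 in EC, 12.58, 12.05 and 12.20 in HSPC, and 10.36, 10.16 and 9.36 in HC. For both genes all HC arrays lay below every EC and HSPC array, while the ranges of HSPC and EC overlapped. Igf2 was 6.75-fold lower in HC than in EC (log2 difference -2.75 ± 0.32 SE, adjusted p = 0.000181) and 5.5-fold higher in HSPC than in HC (2.46 ± 0.32 SE, adjusted p = 0.00135). H19 was 6.00-fold lower in HC than in EC (-2.59 ± 0.24 SE, adjusted p = 5.14e-05) and 5.00-fold higher in HSPC than in HC (2.32 ± 0.24 SE, adjusted p = 0.000519). Against EC, HSPC differed by -0.29 for Igf2 (adjusted p = 0.675) and by -0.26 for H19 (adjusted p = 0.602), neither past the threshold.

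Igf2r, the receptor that takes up Igf2 for degradation (maternal), was 10.02-fold lower in HC than in EC. Its levels were 9.32, 8.96 and 9.31 in EC, 8.29, 7.19 and 7.92 in HSPC, and 6.35, 5.81 and 5.47 in HC. The 3 populations did not overlap, with HSPC below EC (-1.40 ± 0.29 SE, adjusted p = 0.0107) and above HC (1.93 ± 0.29 SE, adjusted p = 0.00307). Airn, the paternal noncoding RNA that silences Igf2r on its own copy, took the same order, at 6.42, 6.85 and 7.23 in EC, 6.21, 5.55 and 5.82 in HSPC, and 4.77, 4.93 and 4.66 in HC. It was 4.13-fold lower in HC than in EC (adjusted p = 0.000113) and 1.97-fold lower in HSPC than in EC (adjusted p = 0.0146); the HSPC difference missed the threshold without HSPC replicate 2 or 3 and in a fit of the compared arrays alone. Airn is transcribed across Igf2r on the opposite strand, and since the protocols do not state that strand was kept, the signals of the 2 genes cannot be told apart where they overlap.

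The growth restrainers Grb10, Cdkn1c and Plagl1 were also lower in HC than in EC. Grb10, an adaptor that dampens insulin and Igf receptor signals (maternal outside neurons), stood at 10.39, 10.20 and 10.51 in EC, 9.59, 8.60 and 9.02 in HSPC, and 7.87, 7.66 and 6.94 in HC. It was 7.34-fold lower in HC than in EC (-2.87 ± 0.28 SE, adjusted p = 6.96e-05), and HSPC lay between, 2.45-fold below EC (adjusted p = 0.0133, lost without EC replicate 3) and 3.00-fold above HC (adjusted p = 0.00656). Cdkn1c, the cyclin-dependent kinase inhibitor p57 (maternal), stood at 9.32, 9.27 and 9.20 in EC, 9.26, 8.35 and 8.59 in HSPC, and 7.43, 7.26 and 6.97 in HC. HSPC replicate 1 lay within the EC range and the other HSPC arrays below it. Cdkn1c was 2.86-fold higher in HSPC than in HC (1.52 ± 0.21 SE, adjusted p = 0.00212), while its difference from EC was -0.53 (adjusted p = 0.151), or -0.79 (adjusted p = 0.00548) when HSPC replicate 1 was left out.

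Plagl1, a zinc finger transcription factor that halts the cell cycle and regulates other imprinted genes (paternal), had the largest of the 30 fitted differences between HC and EC. It stood at 11.09, 10.91 and 11.09 in EC, 10.29, 8.85 and 9.54 in HSPC, and 7.32, 7.26 and 5.84 in HC, with no overlap between any 2 populations. It was 18.7-fold lower in HC than in EC (-4.22 ± 0.44 SE, adjusted p = 9.34e-05) and 6.75-fold higher in HSPC than in HC (2.76 ± 0.44 SE, adjusted p = 0.00373). Against EC, HSPC lay at -1.47 ± 0.44 SE with an adjusted p of 0.0526, which passed in 7 of 15 other settings.

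**Figure D2:**
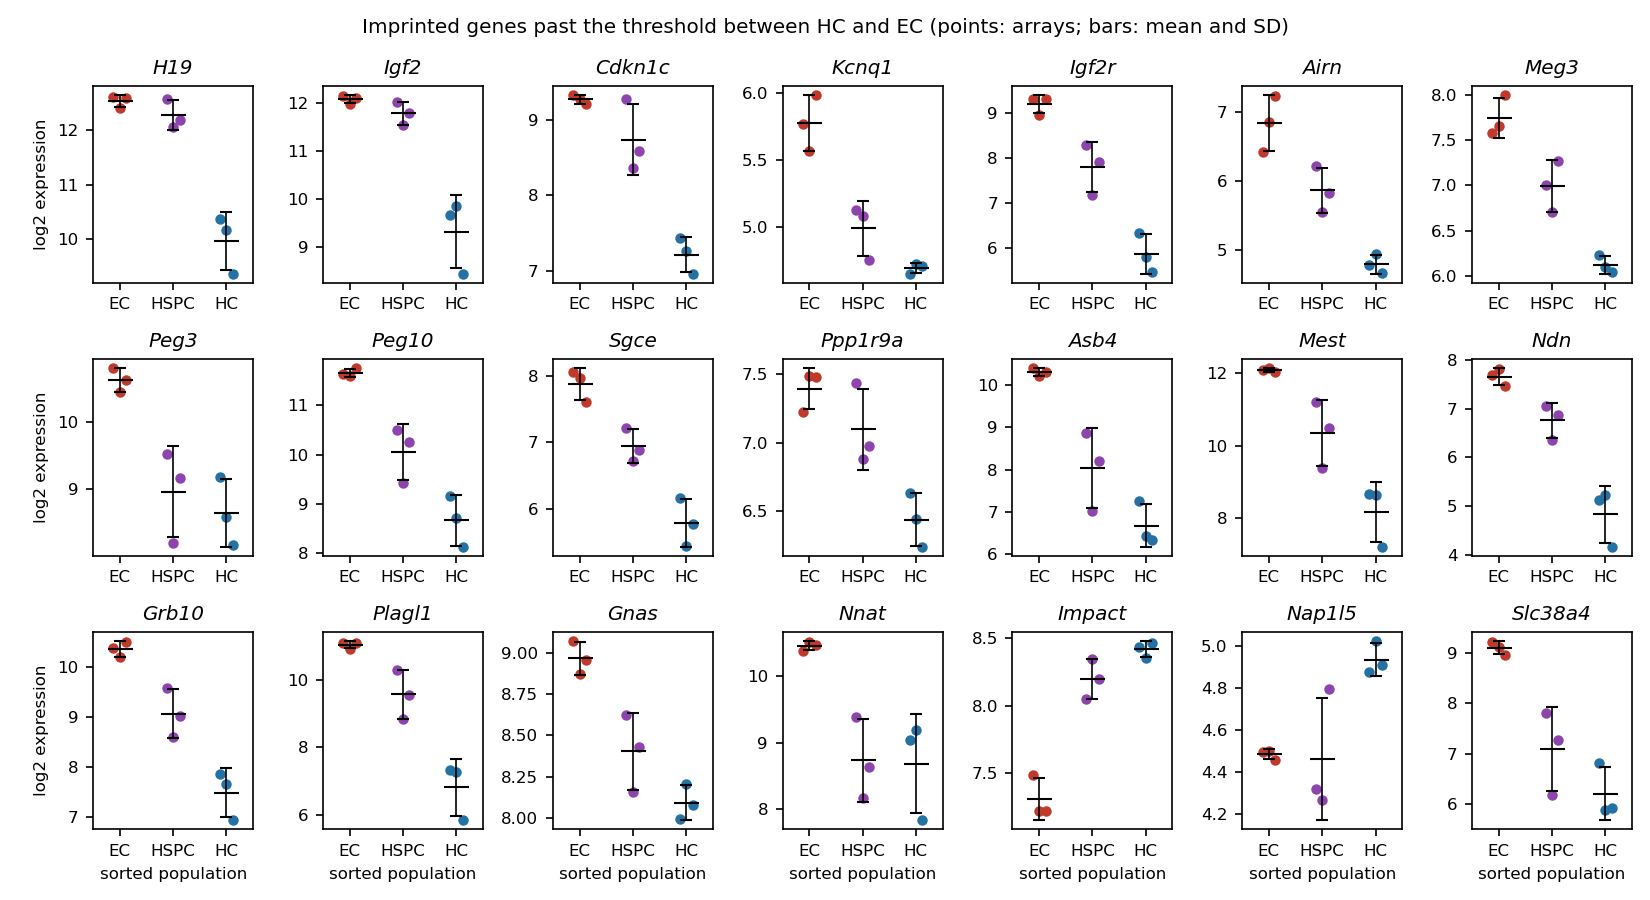
Log2 expression of the 21 imprinted genes past the threshold between HC and EC, in EC (red), HSPC (purple) and HC (blue); points are arrays, bars the mean and SD of 3, and each panel has its own scale. In 19 panels HC lies below EC, and in Impact and Nap1l5 above.

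The cluster that holds Peg10 and Sgce had all 4 measured genes lower in HC. Asb4, an endothelial and vessel-associated subunit of ubiquitin ligases (maternal), stood at 10.40, 10.21 and 10.31 in EC, 8.88, 7.02 and 8.20 in HSPC, and 7.25, 6.43 and 6.34 in HC. It was 12.4-fold lower in HC (adjusted p = 0.000186) and 4.84-fold lower in HSPC (-2.28 ± 0.42 SE, adjusted p = 0.00571), the largest fitted fall of any member in HSPC against EC. Peg10, a gene derived from a retrotransposon and needed for the placenta (paternal), stood at 11.64, 11.59 and 11.76 in EC, 10.51, 9.42 and 10.25 in HSPC, and 9.16, 8.72 and 8.13 in HC. The populations did not overlap, with HC 7.96-fold below EC (adjusted p = 8.73e-05). Peg10 in HSPC was 3.03-fold below EC (adjusted p = 0.00686) and 2.63-fold above HC (adjusted p = 0.0165). The call against HC was lost without HSPC replicate 1 or 3 or HC replicate 3, and in a fit of the compared arrays alone. Sgce, the muscle and brain membrane protein epsilon-sarcoglycan (paternal), which shares its control region with Peg10, stood at 8.06, 7.97 and 7.61 in EC, 7.22, 6.72 and 6.89 in HSPC, and 6.16, 5.43 and 5.77 in HC, without overlap. It differed in all 3 comparisons, by -0.94 in HSPC against EC (adjusted p = 0.0127, lost without EC replicate 1). Ppp1r9a, the actin-binding protein neurabin (maternal in extraembryonic tissue), was 1.94-fold lower in HC than in EC (adjusted p = 0.00167), with HC at 6.63, 6.45 and 6.24, HSPC at 7.43, 6.88 and 6.98 and EC at 7.22, 7.48 and 7.48. HSPC overlapped EC and lay above HC by 0.66 ± 0.16 SE (adjusted p = 0.0250). That call was lost without HSPC replicate 1, HC replicate 2 or HC replicate 3, and in a fit of the compared arrays alone.

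Mest, an enzyme of the alpha/beta hydrolase family found in fetal mesoderm (paternal), stood at 12.09, 12.14 and 12.05 in EC, 11.20, 9.38 and 10.48 in HSPC, and 8.67, 8.64 and 7.20 in HC. The EC arrays were tightly grouped and the HSPC arrays spread over a wide range, still above every HC array. Mest was 15.2-fold lower in HC than in EC (-3.93 ± 0.49 SE, adjusted p = 0.000285). In HSPC it was 3.34-fold below EC (adjusted p = 0.0410) and 4.55-fold above HC (adjusted p = 0.0176). The first of these was lost in 7 of 15 other settings and the second in 4, each of those settings keeping the direction.

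For Nnat, Peg3 and Slc38a4, HSPC lay below EC, and its difference from HC did not pass the threshold. Nnat, the membrane protein neuronatin (paternal), stood at 10.39, 10.52 and 10.48 in EC, 9.40, 8.17 and 8.64 in HSPC, and 9.04, 9.19 and 7.84 in HC. HSPC and HC overlapped, and both lay below EC, by -1.72 (adjusted p = 0.0138) and -1.77 (adjusted p = 0.00724). Peg3, a zinc finger protein with parts in maternal care and growth (paternal), stood at 10.81, 10.46 and 10.63 in EC, 9.52, 8.20 and 9.17 in HSPC, and 9.18, 8.59 and 8.17 in HC. It was 3.18-fold lower in HSPC than in EC (adjusted p = 0.00989) and 3.97-fold lower in HC (adjusted p = 0.0021). Slc38a4, an amino acid transporter (paternal), stood at 9.23, 9.12 and 8.97 in EC, 7.81, 6.17 and 7.28 in HSPC, and 6.80, 5.87 and 5.92 in HC. It was 4.05-fold lower in HSPC than in EC (adjusted p = 0.00741). Against HC, HSPC differed by 0.05 for Nnat (adjusted p = 0.958), 0.32 for Peg3 (adjusted p = 0.622) and 0.89 for Slc38a4 (adjusted p = 0.189), none past the threshold, and the Slc38a4 difference passed without HSPC replicate 2 (adjusted p = 0.0157).

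Ndn, Kcnq1 and Gnas completed the members lower in HC. Ndn, the MAGE family protein necdin (paternal), stood at 7.69, 7.80 and 7.46 in EC, 7.05, 6.35 and 6.87 in HSPC, and 5.13, 5.23 and 4.17 in HC, without overlap. Ndn was 7.01-fold lower in HC than in EC (adjusted p = 7.59e-05) and 3.78-fold higher in HSPC than in HC (adjusted p = 0.00255). Kcnq1, a potassium channel (maternal), stood at 5.77, 5.57 and 5.98 in EC, 5.13, 5.08 and 4.75 in HSPC, and 4.65, 4.72 and 4.71 in HC. All EC arrays lay above all others. Kcnq1 was 2.12-fold lower in HC (adjusted p = 0.000193) and 1.72-fold lower in HSPC (adjusted p = 0.00276). The HC means of Kcnq1 (4.691) and Ndn (4.84), and that of Airn (4.79), lay just above the background level of 4.689. Differences so near background are compressed, so the folds of these genes against HC may be too small. Gnas, the stimulatory G protein alpha subunit, stood at 9.07, 8.87 and 8.96 in EC, 8.62, 8.16 and 8.43 in HSPC, and 7.996, 8.21 and 8.08 in HC, where HSPC and HC overlapped. Gnas was 1.83-fold lower in HC (adjusted p = 0.00051) and 1.48-fold lower in HSPC (adjusted p = 0.0113).

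In the Dlk1-Dio3 cluster only the maternal gene passed the threshold. Meg3, a noncoding RNA (maternal), stood at 7.58, 7.66 and 7.997 in EC, 7.01, 6.71 and 7.27 in HSPC, and 6.23, 6.10 and 6.04 in HC. It fell stepwise, by -0.75 ± 0.16 SE in HSPC against EC (adjusted p = 0.0102) and a further 0.87 ± 0.16 SE between HSPC and HC (adjusted p = 0.00638). Dlk1, a Notch-related membrane protein of fetal progenitors (paternal), stood at 7.32, 7.32 and 6.90 in EC, 7.39, 8.36 and 7.94 in HSPC, and 7.17, 7.53 and 6.50 in HC. All HSPC arrays lay above all EC arrays, but the differences of 0.72 from EC (adjusted p = 0.162) and 0.83 from HC (adjusted p = 0.107) did not pass the threshold. Dio3, a thyroid hormone deiodinase (paternal), was at background in every population.

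Impact, a regulator of translation under amino acid shortage (paternal), was higher in HC than in EC, against the direction of most members. It stood at 7.49, 7.22 and 7.22 in EC, 8.05, 8.34 and 8.19 in HSPC, and 8.43, 8.35 and 8.46 in HC. Every CD45+ array thus lay above every EC array, with HC 2.16-fold higher (1.11 ± 0.10 SE, adjusted p = 4.44e-05) and HSPC 1.85-fold higher (0.89 ± 0.10 SE, adjusted p = 0.000477). Nap1l5, a nucleosome assembly family retrogene (paternal), was at background in EC and HSPC and was at least 1.19-fold higher in HC than in EC (4.88, 5.02 and 4.91 against 4.50, 4.50 and 4.46, adjusted p = 0.0299), with HSPC at 4.32, 4.27 and 4.80. That call was lost without any of the EC or HC arrays in turn, and its difference between HSPC and HC (adjusted p = 0.0409) in 10 of 15 settings.

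HSPC were set against EC to ask what sets the CD45+ cells of the CD144+ gate apart from their CD45- neighbours. Of the 30 members 14 were lower in HSPC and 2 higher, against 7.94% and 8.55% of all genes (16.5% in either direction), and the median difference was -0.66 (0.01 over all genes). The fallen genes were Kcnq1, Igf2r, Airn, Meg3, Peg3, Zim1, Peg10, Sgce, Asb4, Mest, Grb10, Gnas, Nnat and Slc38a4, of which 6 are maternally and 7 paternally expressed besides Gnas. Arrays did not overlap for 20 members, against 28.2% of all genes. The count of 14 became 17 without HSPC replicate 1, 12 without HSPC replicate 2 and 16 without HC replicate 3. Zim1, a zinc finger protein beside Peg3 (maternal), fell in HSPC, at 4.57, 4.16 and 4.49 against 5.55, 5.03 and 4.99 in EC (at least 1.41-fold, adjusted p = 0.0128), with HC at 5.04, 4.70 and 4.94.

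Slc22a18 was the only member in which HSPC passed the threshold in the same direction against both other populations. It encodes an organic cation transporter (maternal) and stood at 6.01, 6.09 and 6.09 in EC, 6.49, 6.50 and 6.61 in HSPC, and 5.89, 6.05 and 6.14 in HC. HSPC was 1.38-fold above EC (0.47 ± 0.08 SE, adjusted p = 0.00373) and 1.42-fold above HC (0.51 ± 0.08 SE, adjusted p = 0.00358), with no overlap of arrays. Over all genes 1.27% were highest in HSPC in this way.

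HSPC were set against HC to ask what the CD144+ part of the CD45+ cells expresses. Here 14 members were higher in HSPC and 1, Nap1l5, was lower, against 7.01% and 7.61% of all genes (14.6% in either direction), with a median difference of 0.74 (-0.03 over all genes). The 14 were H19, Igf2, Cdkn1c, Slc22a18, Igf2r, Airn, Meg3, Peg10, Sgce, Ppp1r9a, Mest, Ndn, Grb10 and Plagl1. Without HSPC replicate 1 the count was 11, without HSPC replicate 2 it was 17 and without HC replicate 3 it was 11, and the 1 lower became 0 without any of these arrays. The 2 comparisons with HSPC share its arrays, so a high HSPC array moves both. Arrays did not overlap for 19 members, against 29.6% of all genes.

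The 19 genes lower in HC fell into 3 patterns by where HSPC stood. In 7 genes (Igf2r, Airn, Meg3, Peg10, Sgce, Mest and Grb10) HSPC was below EC and above HC, both past the threshold, a pattern held by 2.30% of all genes. In 6 (Kcnq1, Peg3, Asb4, Gnas, Nnat and Slc38a4) only the difference from EC passed, as in 4.55% of all genes. In the other 6 (H19, Igf2, Cdkn1c, Ppp1r9a, Ndn and Plagl1) only the difference from HC passed, as in 2.65%. A difference that misses the threshold does not show equal levels. Asb4 differed between HSPC and HC by 1.36 (adjusted p = 0.0654, limma), and Ndn between HSPC and EC by -0.89 (adjusted p = 0.0655). Both differences passed in some of the other settings. Single arrays moved these counts: the 7 became 4 without HSPC replicate 3, the first 6 became 3 without HSPC replicate 2, and the other 6 became 3 without HSPC replicate 1 or HC replicate 3. Under each omission of 1 array, Igf2r and Meg3 remained in the first pattern, Kcnq1, Peg3 and Nnat in the second, and H19 and Igf2 in the third.

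Placed on a scale with the EC mean at 0% and the HC mean at 100%, HSPC had a mean position of 10.2% for H19, 10.7% for Igf2, 25.8% for Cdkn1c, 34.8% for Plagl1, 44.3% for Mest, 83.9% for Peg3 and 97.4% for Nnat. The median over the 19 genes was 44.9%, and over all 2562 genes lower in HC it was 57.4%; this is a description without a test. HSPC replicate 1 was the highest of the HSPC arrays for 18 of the 19 genes and replicate 2 the lowest for 18, which is also the order of their endothelial marker sums. HC replicate 3 was the lowest HC array for 15 of them. The part of endothelial RNA in these levels was not tested.

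**Figure D3:**
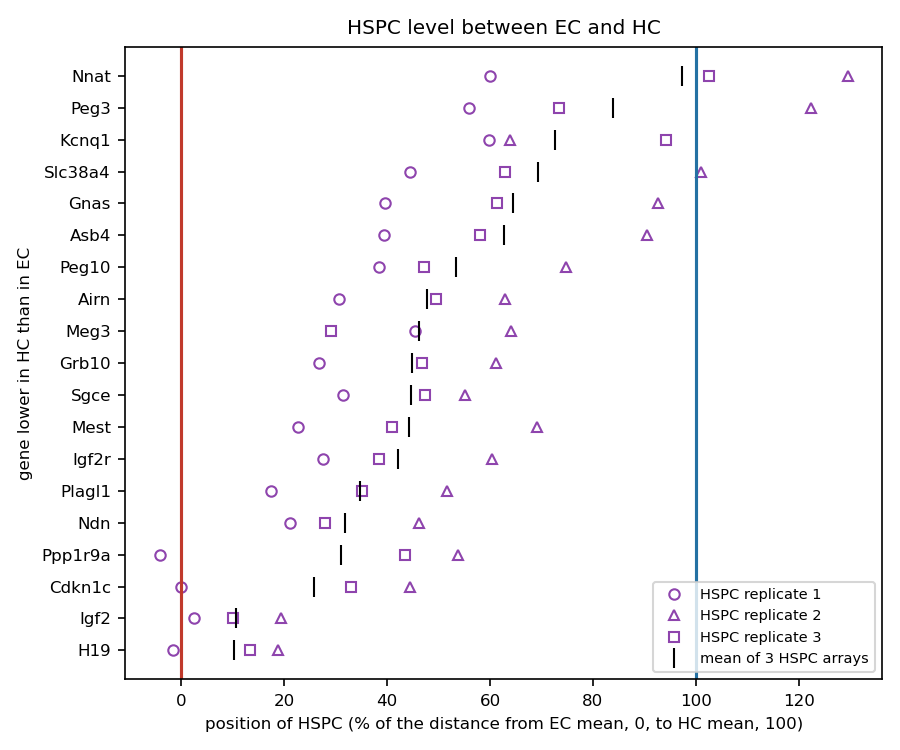
Position of each HSPC array between the EC mean (0%, red line) and the HC mean (100%, blue line) for the 19 imprinted genes lower in HC; symbols are the 3 HSPC arrays and ticks their mean. H19 and Igf2 lie next to EC and Nnat next to HC, and replicate 2 lies furthest towards HC for 18 of the 19 genes.

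Neighbouring genes of opposite parental expression were set against each other within each array. The level of such a difference depends on the probe sets, and only its change between populations can be read. Igf2 minus H19 averaged -0.47 ± 0.02 in EC, -0.50 ± 0.09 in HSPC and -0.64 ± 0.30 in HC (SD, n = 3), so that its changes between populations were within the spread of the HC arrays. Dlk1 minus Meg3 averaged -0.57 ± 0.46 in EC, 0.90 ± 0.67 in HSPC and 0.94 ± 0.48 in HC, with all EC arrays below all others. Airn minus Igf2r rose from -2.37 ± 0.47 in EC to -1.09 ± 0.42 in HC. Peg3 minus Zim1 was 5.45 ± 0.19 in EC and 3.75 ± 0.47 in HC. Airn in HC (mean 4.79) and Zim1 in EC, HSPC and HC (means 5.19, 4.41 and 4.89) lay near the background level of 4.69. Differences of such weak genes are compressed, so the changes of these pairs cannot be read as a shift between their genes. In these HC-EC comparisons of the last 3 pairs the exact two-sided permutation p was 0.1, the smallest that 3 arrays against 3 can give, and 0.2 after Benjamini-Hochberg adjustment over the 12 pair comparisons, so none could pass the threshold.

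**Figure D4:**
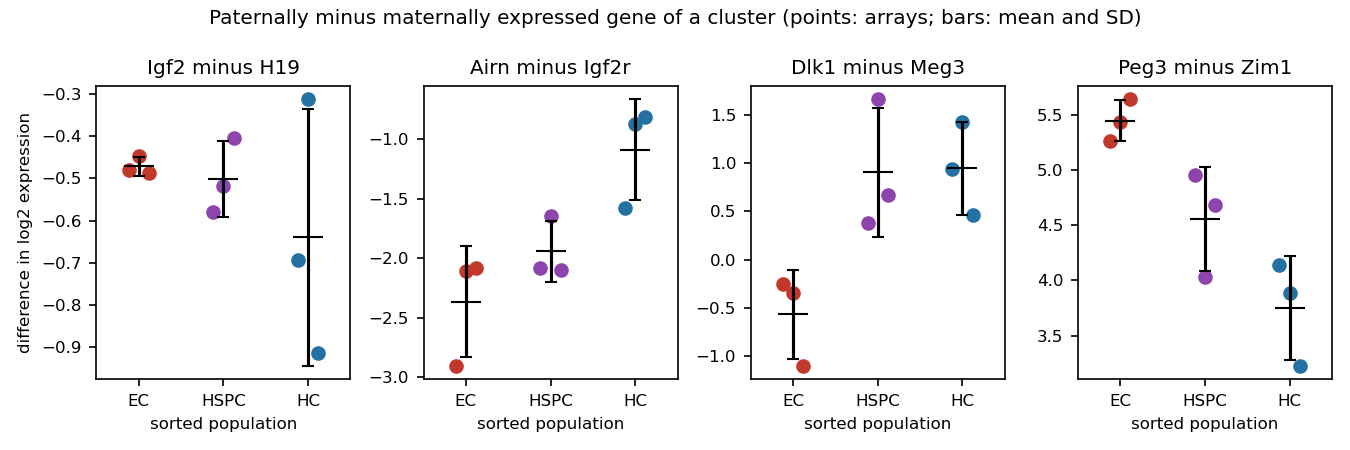
Log2 level of a paternally expressed gene minus that of a maternally expressed gene of the same cluster, per array, in EC, HSPC and HC; bars are the mean and SD of 3 arrays. Igf2 minus H19 overlaps between populations, while Dlk1 minus Meg3 is lower on all EC arrays than on the other 6.

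Besides Dlk1 and Dio3, the members Phlda2, Ascl2, Dcn, Magel2 and Rasgrf1 passed in no comparison. Phlda2, which limits placental growth, Ascl2, a trophoblast transcription factor, and Dcn, the matrix proteoglycan decorin, are classed here as maternally expressed. Their group means lay between 4.46 and 4.88. Magel2, a MAGE family protein beside Ndn (paternal), stood at 5.26 ± 0.24 in EC and 4.92 in both HSPC and HC, and its difference of -0.34 between HC and EC had an adjusted p of 0.073. Rasgrf1, a Ras exchange factor (paternal), was at background with nearly the same value on all arrays, 3.95.

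A further list held genes that lie beside the members in imprinted clusters or are imprinted elsewhere. Of its 33 measured genes 8 were lower and 2 higher in HC than in EC, against 12.6% and 14.8% of all genes, with a median difference of -0.09. Both directions together this is near the 27.4% of all genes. The genes with the largest fitted differences were Zdbf2, a paternally expressed zinc finger gene (-1.94 ± 0.11 SE, adjusted p = 4.4e-06), Casd1, a sialic acid acetyltransferase beside Sgce (-1.56 ± 0.13 SE), Gab1, a signalling adaptor imprinted in placenta (-1.38 ± 0.16 SE), and Tspan32, a blood cell tetraspanin beside Ascl2. Tspan32 was at background in EC and at least 2.48-fold higher in HC and at least 3.14-fold higher in HSPC. In HSPC against EC 5 were lower and 3 higher, against 7.94% and 8.55% of all genes, and Gab1 (-1.10), Casd1 (-0.84) and Tfpi2, a protease inhibitor beside Peg10 (-0.79), were the other leading ones. In HSPC against HC 4 were higher and 0 lower, against 7.01% and 7.61% of all genes. An unadjusted p under 0.05 (limma) in either direction held for 9 of the 33, against 5463 of all 20405 genes. The 4 were Zdbf2, 1.70 ± 0.11 SE above HC (adjusted p = 6.92e-05), Casd1 (0.72), the tetraspanin gene Cd81 (0.59) and the signal peptide peptidase H13 (0.44). Whether this list and the members differ in how often they passed was not tested.

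Among 19 genes that set, keep or read imprints, Zfp57 had the largest difference between HC and EC. It stood at 8.58, 8.20 and 8.71 in EC, 7.41, 6.72 and 7.19 in HSPC, and 6.00, 5.95 and 5.69 in HC, without overlap between populations. It was lower in HC than in EC by -2.62 ± 0.19 SE (adjusted p = 1.3e-05), lower in HSPC than in EC by -1.39 ± 0.19 SE (adjusted p = 0.00127) and higher in HSPC than in HC by 1.23 ± 0.19 SE (adjusted p = 0.00343). Its partner Trim28 was lower in HC than in EC (-0.38 ± 0.09 SE, adjusted p = 0.0102), and 0.37 ± 0.09 SE higher in HSPC than in HC (adjusted p = 0.0217). The maintenance methyltransferase Dnmt1 stood at 9.83 ± 0.05, 10.02 ± 0.11 and 9.87 ± 0.02 in EC, HSPC and HC and passed in no comparison. The de novo methyltransferases were highest in HSPC, Dnmt3b by 2.08 ± 0.14 SE over EC (adjusted p = 2.46e-05) and 1.58 ± 0.14 SE over HC (adjusted p = 0.000207), and Dnmt3a by 0.58 ± 0.10 SE over EC (adjusted p = 0.00331). Tet1, which oxidises methylated cytosine, was lower in HC than in HSPC (HSPC minus HC 1.78 ± 0.19 SE, adjusted p = 0.000588) and than in EC (-1.24 ± 0.19 SE, adjusted p = 0.00107). Tet2, of the same family, was lower in HSPC than in HC (-0.65 ± 0.11 SE, adjusted p = 0.0061). Arid4a and Arid4b, chromatin proteins with a part in imprinting in the mouse, differed between HC and EC in opposite directions (0.71 and -0.69), and Arid4a was also higher in HSPC than in EC (0.50). In all, 4 of the 19 were higher and 4 lower in HC than in EC (14.8% and 12.6% of all genes), 3 higher and 1 lower in HSPC than in EC (8.55% and 7.94%), and 6 higher and 1 lower in HSPC than in HC (7.01% and 7.61%).

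**Figure D5:**
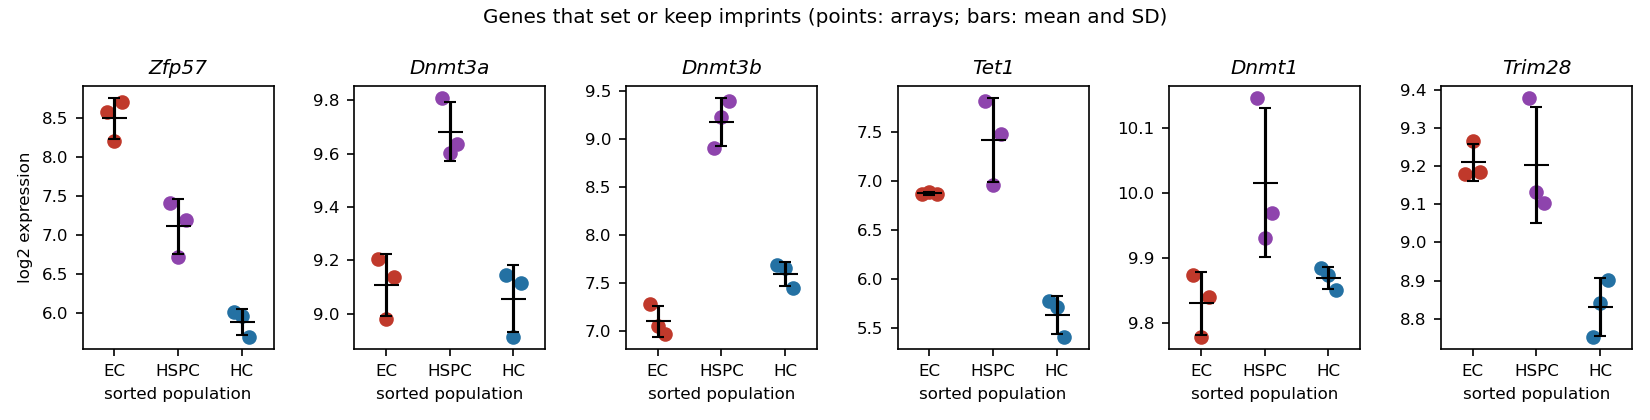
Log2 expression of 6 genes that set or keep imprints, per array, in EC, HSPC and HC; bars are the mean and SD of 3 arrays, and each panel has its own scale. Zfp57 steps down from EC through HSPC to HC, and Dnmt3a and Dnmt3b are highest in HSPC.

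Markers of other cell types were read beside these results. Many imprinted genes are also known to be high in mesenchymal and mural cells. The summed level of 12 markers of these cells ranged from 9.15 to 9.68 (EC), 8.97 to 9.55 (HSPC) and 9.15 to 9.56 (HC). Between HC and EC 0 of the 12 passed, against 27.4% of all genes. An unadjusted p under 0.05 (limma) held for 1 of them, against 7364 of all 20405 genes. In HSPC, 3 of the 12 were lower than in EC (Col3a1 by -0.43, Prrx1 by -0.63 and Rgs5, at least 1.30-fold) and 0 higher. Over all genes 7.94% were lower and 8.55% higher. The 3 took the direction of the 14 members, and the median of the 12 was -0.32. Against HC, 2 were lower (Pdgfrb by -0.45 and Prrx1 by -0.65) and 0 higher, against 7.61% and 7.01% of all genes. Postn (0.90 against EC, 0.92 against HC) and Acta2 (0.02 and 0.51) lay the other way, none past the threshold. Only Lum of these markers was at background in EC, and 2 of the 12 were in HSPC. Pdgfrb (4.98), Postn (4.99), Cspg4 (5.01) and Rgs5 (5.07) lay near the background level of 4.69 in EC, where differences are compressed. Col1a1 (6.65) and Acta2 (7.15) lay further above it. The sum of 6 endothelial markers ranged from 13.39 to 13.63 in EC and 7.97 to 8.73 in HC. All 6 were lower in HC and thus moved with the members. In HSPC, 4 of the 6 were lower than in EC (median difference -1.65) and all 6 higher than in HC (median 3.57). These, too, were the directions of most members past the threshold. The sum of 6 macrophage markers ranged from 7.35 to 8.10 in EC and 13.50 to 13.61 in HC, all 6 higher in HC. In HSPC all 6 were higher than in EC (median difference 4.40), and 5 were lower than in HC (median of the 6, -1.42). Of 5 neural markers 1, Stmn2, was lower in HC, by -3.35 (adjusted p = 4.24e-05). The erythroid sum of 4 genes ranged from 11.40 to 12.90 in EC and 11.46 to 12.64 in HC. The part of other cell types in the members' levels was not tested.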

How the data were processed

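Gene expression was measured on 9 Affymetrix arrays (the labels' protocols name Mouse Gene 1.0 ST and 2.0 ST without saying which sample was run on which, so array type could differ between groups), after amplification of nanogram amounts of RNA. The deposited values are log2 expression values of 21115 probe sets, made by the authors with RMA and Partek per the submitters' processing notes; neither versions nor a genome build could be read from the labels or headers. RMA's shared scale hides changes in total RNA per cell and compresses differences of weak genes. The platform table named 20405 probe sets by 1 symbol; the 710 unnamed ones were left out, and no filter on low values was used. Array medians lay between 5.41 and 5.51.

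All 9 arrays entered 1 fit in limma 3.58.1 (R 4.3.3; lmFit and eBayes, two-sided, 6 residual degrees of freedom, a mean per group). P-values were adjusted by Benjamini-Hochberg across all 20405 genes, with a threshold of 0.05. The fit was tested on simulated data. Marker sums are log2 of summed linear levels. The members and gene lists were chosen with earlier results of these data known; all members are accounted for, and of the other lists at most the 4 largest differences per comparison are described, Trim28 and Dnmt1 excepted, which were picked after their values were seen. Same-numbered arrays deviated together little (correlations -0.04 to 0.15), so replicate numbers were not taken as pairs. Alternatives were repeated quantile normalization, median centring, a filter on dim probe sets, trend and robust options, a fit per comparison, a replicate block, and leaving out each array. Precision is limited by the number of arrays.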

Additional observations from a re-analysis of the deposited data

How the results depend on the processing

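The 52 member differences past the threshold were refitted in 15 other settings each. None changed sign, 43 kept their call in all settings, and 40 of 780 refits missed the threshold, those of Airn, Sgce, Mest and Grb10 (HSPC against EC), Peg10, Ppp1r9a, Mest and Nap1l5 (HSPC against HC) and Nap1l5 (HC against EC). A further 11 differences passed in at least 1 setting only. The counts of members lower in HC than in EC stayed at 19 or 20. Leaving out each array in turn gave 12 to 17 members lower in HSPC than in EC, 11 to 17 higher in HSPC than in HC, 0 to 1 lower in HSPC than in HC, and 1 to 2 higher in HC than in EC. For the cluster neighbours it gave 3 to 5 higher in HSPC than in EC and 0 to 1 lower in HSPC than in HC, and for the regulators 3 to 5 higher in HSPC than in EC and 2 to 4 higher in HC than in EC. For the patterns it gave 4 to 8 members with both steps, 3 to 9 with only HSPC below EC and 3 to 8 with only HSPC above HC. Of the maternal genes 0 to 1 and of the paternal genes 0 to 1 were lower in HSPC than in HC, and 1 to 2 paternal genes were higher in HC than in EC. With only the arrays of the comparison, 0 members were lower in HSPC than in HC and 11 higher; with dim probe sets left out, 1 cluster neighbour was lower in HSPC than in HC. The replicate block gave 2 members lower in HSPC than in HC, the maternal Zim1 and Dcn, and 0 paternal ones in place of Nap1l5. It gave 15 lower in HSPC than in EC. Whether equal replicate numbers mark paired samples is not known. The causes were not tested. Genes near background have compressed differences, and 2 members, Dio3 and Rasgrf1, were at background in all groups.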
